A study of Mus musculus with 8 samples.

Results

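Transcripts of 10 genes that mark ovarian stromal cells were followed from ovarian tissue into the RNA recovered with an antibody against the decapping factor DCP1A. The members were taken by name, and all 10 were found among the 23107 genes of the count table: Dcn, Lum, Ogn, Fbn1, Mfap4, Mfap5, Postn, Pdgfra, Nr2f2 and Tcf21. Collagen genes were left out of the set. RNA came from ovarian cortex of mice at postnatal day 8, in 4 DCP1A RNA immunoprecipitation (RIP) libraries and 4 input libraries, and the stated purpose was to find RNAs bound by DCP1A in primary oocytes. The sources used here give no genotype, strain or number of animals, and they name no treatment. The labels do not say that replicates came from separate animals, so p-values measure the spread between libraries, part or all of which may be technical. Binding to a control antibody was not analysed here.

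The ovarian stroma is the mesenchymal tissue between follicles. Its fibroblast-like cells lay down a matrix of collagen and proteoglycans, and some of them join growing follicles as theca. DCP1A is a cofactor of the decapping enzyme and a component of processing bodies, cytoplasmic granules that hold mRNA that is stored, silenced or decaying. Stromal cells have processing bodies too, so an immunoprecipitation from whole cortex can hold stromal as well as oocyte RNA.

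RIP libraries held 16325384 to 21269892 counts and input libraries 13098154 to 25757620. Levels are given in CPM (counts scaled to library size, with TMM normalization), which compare libraries within 1 gene. They are not corrected for transcript length, so they do not rank genes against each other. All 10 members had counts in every library and all 10 passed the filter on low counts. Markers of other cells of the ovary were present beside them, as cortex contains them: the summed level of 14 oocyte markers was 3229 to 4331 CPM in RIP and 3340 to 4897 CPM in input, and that of 12 granulosa cell markers was 1693 to 2337 CPM in RIP and 1463 to 3120 CPM in input. In bulk samples like these, fewer stromal cells and less RNA per stromal cell cannot be told apart. RIP over input sets RNA recovered with the antibody against input, so it does not measure the number of stromal cells.

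No stromal marker passed the test between RIP and input. Dcn, Nr2f2 and Ogn had the largest evidence of a lower level in RIP, and Lum had a mean in the same direction. Mfap4, Tcf21 and Pdgfra had nearly equal means. Fbn1 averaged 606 CPM in RIP and 518 CPM in input, and Postn 8.57 CPM in RIP and 9.83 CPM in input. In the quasi-likelihood test of edgeR, adjusted by Benjamini-Hochberg over 14667 genes, 0 members were higher and 0 lower, with a lowest adjusted p of 0.622. The same test called 0% of all tested genes higher and 0.0409% lower, which is 6 genes. At an unadjusted p under 0.05, 3 of 10 members were lower (Dcn, Nr2f2 and Ogn) and 0 were higher, where 4.28% of all tested genes were lower and 3.15% higher. The groups overlapped for all 10 members, while all RIP libraries lay above all inputs for 2.77% of tested genes and below them for 2.52%, or 5.29% in all. Of the members, 8 had a log2 fold change below 0, as had 51.7% of tested genes. The median log2 fold change of the members was -0.13, beside -0.02 over all tested genes.

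**Figure D1:**
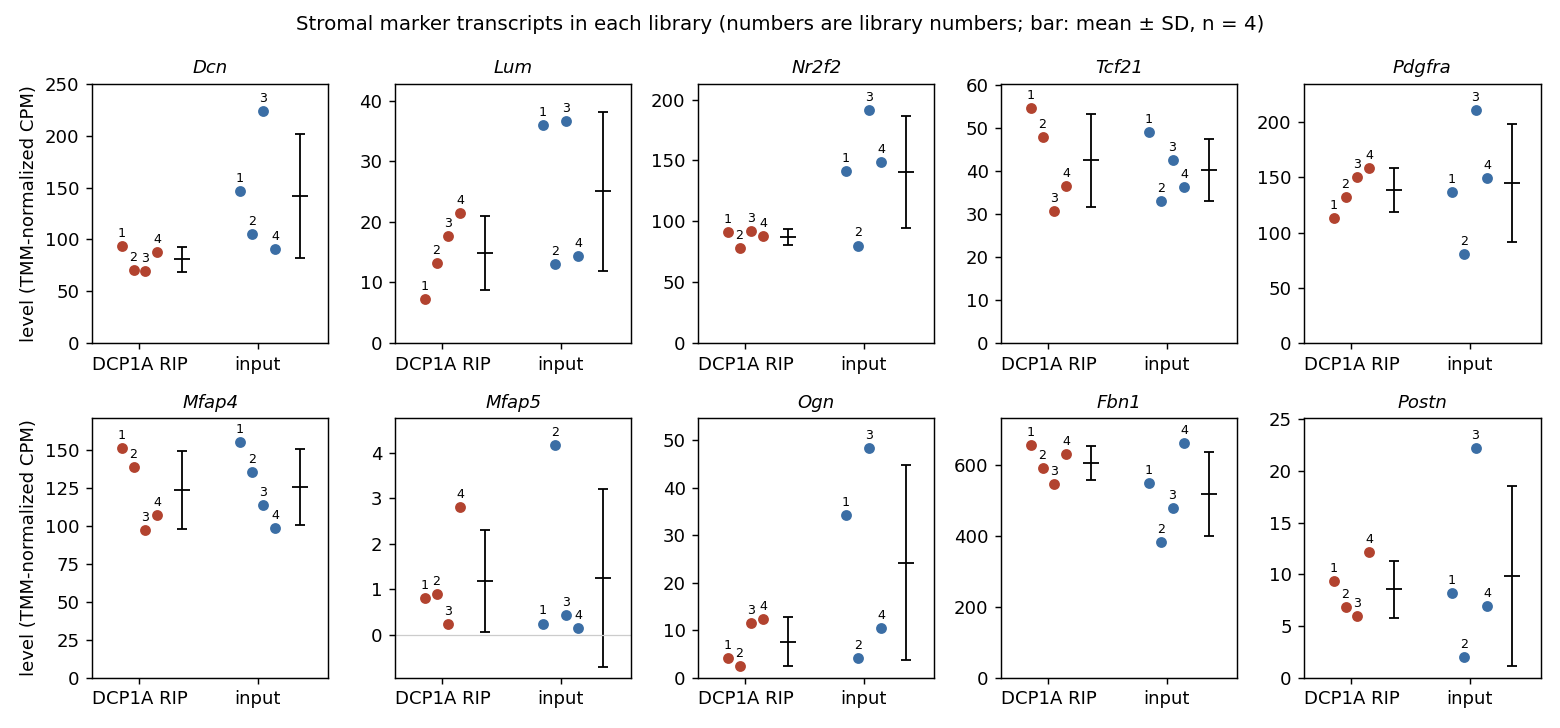
Level of each stromal marker in TMM-normalized CPM (vertical axes, each on its own scale), with the 4 DCP1A RIP libraries in red and the 4 input libraries in blue. Points carry the library number and bars show the mean ± SD (n = 4 each). The RIP libraries lay close together for Dcn (69.8 to 94.0 CPM) and Nr2f2 (77.7 to 91.7 CPM), and input library 3 was the highest point for 6 of the 10 genes.

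The first group of members encodes small leucine-rich proteoglycans, secreted proteins that bind collagen fibrils and regulate their assembly. Dcn encodes decorin, which also binds transforming growth factor beta (mm10 chromosome 10, 97479500 to 97518163). Dcn had 94.0, 70.4, 69.8 and 87.9 CPM in RIP libraries 1 to 4, against 146, 105, 224 and 90.9 CPM in input libraries 1 to 4. Of the RIP libraries, 3 lay below the lowest input, and RIP 1 lay above input 4 only. The mean was 80.5 ± 12.3 CPM in RIP and 142 ± 60 CPM in input (SD, n = 4 each), with a log2 fold change of -0.81 ± 0.29 (SE). The edgeR unadjusted p was 0.0125 and the adjusted p 0.622. Dcn was the member with the smallest p, and its rank by p among all tested genes was 283.

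Lum encodes lumican, a keratan sulfate proteoglycan that also sets fibril thickness, and lies 47337 bp beyond the end of Dcn (chromosome 10, 97565501 to 97572703). Lum had 7.24, 13.2, 17.7 and 21.4 CPM in RIP libraries 1 to 4 and 36.1, 13.1, 36.6 and 14.3 CPM in input libraries 1 to 4. Inputs 2 and 4 sat among the RIP libraries, and inputs 1 and 3 sat above all of them. Its log2 fold change was -0.75 ± 0.45 (edgeR adjusted p = 0.738), with a 95% interval of the difference from -1.70 to 0.20.

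Ogn encodes osteoglycin, also called mimecan, a proteoglycan first purified from bone (chromosome 13, 49608015 to 49624501). Ogn had 4.06, 2.38, 11.6 and 12.4 CPM in RIP libraries 1 to 4 and 34.2, 4.08, 48.2 and 10.4 CPM in input libraries 1 to 4. It varied widely within both groups: the highest input was 11.8 times the lowest, and the highest RIP library 5.19 times the lowest. RIP libraries 1 and 2 lay below the lowest input, while RIP 3 and 4 lay above inputs 2 and 4. The log2 fold change of -1.67 ± 0.68 was the lowest of the 10 members (edgeR unadjusted p = 0.0262, adjusted p = 0.623). Ogn lies within the span of Cenpp, a centromere protein gene, and the sources used here do not say whether counting used strand, so reads of the pair may not be separable. Cenpp had 4.81 to 7.04 CPM in RIP and 4.03 to 15.5 CPM in input (log2 -0.61, edgeR adjusted p = 0.810). The highest Cenpp input was also library 3, as for 29.5% of all tested genes.

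Of the other small leucine-rich proteoglycan genes, 12 were in the table and 8 were tested, and Epyc had no counts in any library. None was called, and 0 had an unadjusted p under 0.05 in either direction. Their median log2 fold change was 0.10, with 6 above 0 and 2 below. Omd, which encodes osteomodulin and had the lowest p of them, averaged 1.56 ± 0.66 CPM in RIP and 3.36 ± 2.30 CPM in input (SD, n = 4 each; log2 -1.11 ± 1.00). Bgn, which encodes biglycan, the closest relative of decorin, averaged 131 ± 16 CPM in RIP and 142 ± 35 CPM in input (-0.11 ± 0.24).

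The members that encode microfibril proteins did not pass the test, with a fold of RIP over input of 1.17 for Fbn1, 0.985 for Mfap4 and 0.963 for Mfap5. Fbn1 encodes fibrillin, the main protein of the microfibrils that scaffold elastic fibres and hold latent transforming growth factor beta (chromosome 2, 125300594 to 125506485). Fbn1 had 656, 593, 547 and 630.3 CPM in RIP libraries 1 to 4 and 549.7, 382, 478 and 663 CPM in input libraries 1 to 4. All RIP libraries lay above inputs 2 and 3, and input 4 was the highest library of all. Its log2 fold change was 0.23 ± 0.23 (edgeR adjusted p = 0.845), with a 95% interval from -0.26 to 0.72. Fbn1 contributed 53.5% to 55.5% of the summed CPM of the 10 members in RIP and 34.9% to 54.4% in input, a large part of the counts summed.

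Mfap4 encodes a microfibril-associated glycoprotein that binds fibrillin and collagen (chromosome 11, 61485431 to 61488708). Mfap4 had 151, 139, 97.2 and 107 CPM in RIP libraries 1 to 4 and 155, 135, 114 and 98.2 CPM in input libraries 1 to 4. In both groups the libraries numbered 1 and 2 were above those numbered 3 and 4. RIP over input gave a log2 fold change of -0.02 ± 0.24 (edgeR adjusted p = 0.988), with a 95% interval from -0.54 to 0.50. Mfap5, which encodes another microfibril glycoprotein (chromosome 6, 122513584 to 122529290), was near the limit of detection. It had 5 to 59 counts per library in RIP and 3 to 49 in input, or 0.234 to 2.80 CPM in RIP and 0.146 to 4.16 CPM in input. The interval of its log2 difference ran from -2.99 to 2.88, so no change of ordinary size was detectable at this depth.

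Related microfibril and elastic fibre genes gave a different count from the stromal markers. Of 19 tested, 15 had a fold change above 0, where 51.7% of all tested genes were below 0. None was lower at an unadjusted p under 0.05 by edgeR and 3 were higher, beside 4.28% and 3.15% of all tested genes. None was called by edgeR's adjusted test. Fbln2, which encodes the matrix glycoprotein fibulin-2, averaged 31.6 ± 18.2 CPM in RIP and 11.4 ± 7.3 CPM in input (SD, n = 4 each; log2 1.48 ± 0.50, edgeR adjusted p = 0.622). The fibrillin-binding protease gene Adamts10 averaged 197 ± 49 CPM in RIP and 119 ± 24 CPM in input (0.73 ± 0.25, edgeR adjusted p = 0.622). The third was Fbln5, an elastic fibre assembly gene named after its value was seen (0.75 ± 0.30). The list's median was 0.20, and whether it differs from that of the stromal markers was not tested.

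Postn encodes periostin, a matricellular protein of collagen-rich tissue that binds integrins (chromosome 3, 54359267 to 54391041). Postn had 9.31, 6.85, 5.998 and 12.1 CPM in RIP libraries 1 to 4 and 8.24, 1.95, 22.2 and 6.96 CPM in input libraries 1 to 4. The RIP libraries lay between the lowest and the highest input. The log2 fold change was -0.20 ± 0.61 (edgeR adjusted p = 0.954). Its sign was not stable: the value was 0.59 without input 3, and 0.66 within libraries numbered 1 and 2. Among 13 other matricellular and adhesive matrix genes, 0 were called. At an unadjusted p under 0.05 by edgeR, 0 were higher and 1 was lower, beside 3.15% and 4.28% of all tested genes. That gene, Cyr61, encodes an integrin-binding matricellular protein and averaged 49.3 ± 11.6 CPM in RIP and 87.3 ± 55.7 CPM in input (SD, n = 4 each; log2 -0.82 ± 0.36). Tnxb, the gene of tenascin-X, which links collagen fibrils, averaged 130.2 ± 55.0 CPM in RIP and 73.4 ± 39.9 CPM in input (0.83 ± 0.39).

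The remaining members are a receptor and a pair of transcription factors that identify the stromal lineage, and none of them passed the adjusted test. Pdgfra encodes the alpha receptor for platelet-derived growth factor, a tyrosine kinase of mesenchymal progenitors (chromosome 5, 75151322 to 75198206). Pdgfra had 113, 132, 150.1 and 158 CPM in RIP libraries 1 to 4 and 137, 80.8, 211 and 149.6 CPM in input libraries 1 to 4. All RIP libraries lay within the range of the inputs. The log2 fold change was -0.07 ± 0.28 (edgeR adjusted p = 0.968), with a 95% interval from -0.65 to 0.52. Of 6 other genes of platelet-derived growth factors and their receptors, 0 passed, and 4 had a fold change above 0. Pdgfrb, the beta receptor gene typical of pericytes, averaged 93.9 ± 24.8 CPM in RIP and 69.2 ± 26.2 CPM in input (SD, n = 4 each; log2 0.44 ± 0.30). The ligand gene Pdgfd averaged 9.42 ± 4.92 CPM in RIP and 5.48 ± 2.55 CPM in input (0.78 ± 0.61).

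Nr2f2 encodes COUP-TFII, an orphan nuclear receptor of mesenchyme that is widely used as a marker of ovarian stromal progenitors (chromosome 7, 70351946 to 70366746). Nr2f2 had 91.4, 77.7, 91.7 and 88.0 CPM in RIP libraries 1 to 4 and 142, 80.1, 192 and 149 CPM in input libraries 1 to 4. Inputs 1, 3 and 4 lay above every RIP library, and input 2 lay among them. The mean was 87.2 ± 6.5 CPM in RIP and 140 ± 46 CPM in input (SD, n = 4 each), with a log2 fold change of -0.69 ± 0.27 (edgeR unadjusted p = 0.0200, adjusted p = 0.622). The lncRNA gene B130024G19Rik overlaps Nr2f2, so reads of this pair may not be separable either. The level of B130024G19Rik was 0.222 to 3.33 CPM in RIP and 1.02 to 11.1 CPM in input. Its own highest input was also library 3 (log2 -1.07, edgeR adjusted p = 0.845), as for 29.5% of all tested genes. Tcf21, Pdgfra and Postn also overlap annotated noncoding RNA genes (Gm10824, Mir7025 and Gm31095), for which no levels are given here.

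Tcf21 encodes a basic helix-loop-helix factor of fibroblast progenitors in many organs, the gonad included (chromosome 10, 22817263 to 22820143). Tcf21 had 54.6, 47.9, 30.7 and 36.4 CPM in RIP libraries 1 to 4 and 49.1, 32.9, 42.5 and 36.2 CPM in input libraries 1 to 4. The highest and the lowest of the 8 libraries were both RIP libraries. RIP over input gave a log2 fold change of 0.08 ± 0.29 (edgeR adjusted p = 0.960), with a 95% interval from -0.53 to 0.68. Of 18 other mesenchymal transcription factor genes tested, 0 passed and 0 had an unadjusted p under 0.05. Tcf4 averaged 97.4 ± 34.8 CPM in RIP and 143 ± 40 CPM in input (SD, n = 4 each; log2 -0.56 ± 0.29), and Osr1, a zinc finger factor of embryonic mesoderm, 3.55 ± 1.599 CPM in RIP and 8.18 ± 5.13 CPM in input (-1.20 ± 0.65).

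**Figure D2:**
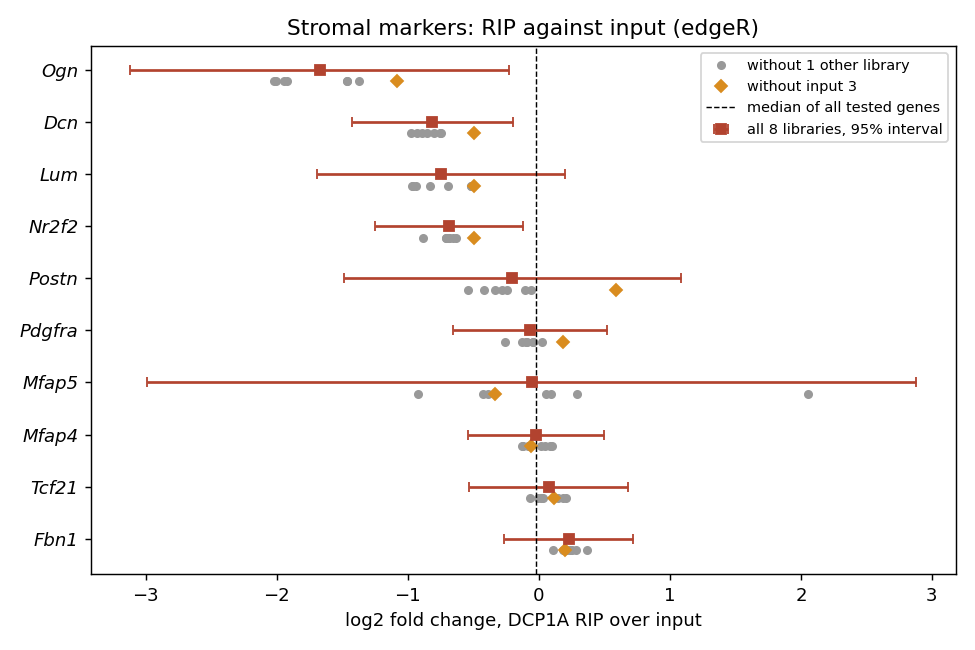
Log2 fold change of DCP1A RIP over input for each stromal marker from edgeR (horizontal axis). Red squares with bars are the value over all 8 libraries with its 95% interval, grey points leave out 1 library each, the orange diamond leaves out input 3, and the dashed line is the median of all tested genes (-0.02). Ogn, Dcn, Lum and Nr2f2 stayed below 0 in every case, and leaving out input 3 gave Dcn -0.50, Nr2f2 -0.49 and Ogn -1.08.

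The lower means of Dcn, Nr2f2 and Ogn in RIP rested in part on a single input library. Without input 3, which held the most counts of all libraries, the log2 fold change was -0.50 for Dcn, -0.49 for Nr2f2 and -1.08 for Ogn. In that setting, 0 of 10 members had an unadjusted p under 0.05 by edgeR, where 2.54% of all tested genes were lower at that threshold. Other libraries mattered too. Without input 2 the values were -0.93 for Dcn, -0.88 for Nr2f2 and -2.02 for Ogn. At an unadjusted p under 0.05 by edgeR, 4 of 10 members were then lower, beside 5.61% of all tested genes. Without RIP 2 that count was 1 of 10, beside 2.44% of all tested genes. The direction of Dcn, Nr2f2, Ogn and Lum was the same in all 20 alternative settings tried, and none of these genes passed the adjusted test in any. Dcn was at -0.62 within libraries numbered 1 and 2 and at -0.9998 within those numbered 3 and 4. For Nr2f2 these values were -0.39 and -0.92, and for Ogn -2.58 and -1.30 (edgeR, lowest adjusted p of these 6 values 0.427).

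The members differed more among the inputs than among the RIP libraries. On the log2 scale, the SD within a group was larger in input than in RIP for 8 of 10 members, the exceptions being Tcf21 and Mfap4, and for 72.6% of all tested genes. The median SD of the members was 0.34 in RIP and 0.58 in input, beside 0.44 in RIP and 0.64 in input over all tested genes. Nr2f2 had an SD of 0.11 in RIP and 0.53 in input, and Postn one of 0.45 in RIP and 1.41 in input. The wider spread of the inputs was therefore shared with most of the table.

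Among inputs, library 3 was the highest for 6 of 10 members and library 2 the lowest for 7 of 10. Over all tested genes, input 3 was the highest of the inputs for 29.5% and input 2 the lowest for 30.3%. Both held together for 5 members (Lum, Nr2f2, Pdgfra, Ogn and Postn) and for 13.8% of tested genes. Dcn shared the high value in input 3 but was lowest in input 4. The other 4 members had their highest input elsewhere: Fbn1 in input 4, Mfap4 and Tcf21 in input 1 and Mfap5 in input 2. What set input 3 apart was not tested.

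**Figure D3:**
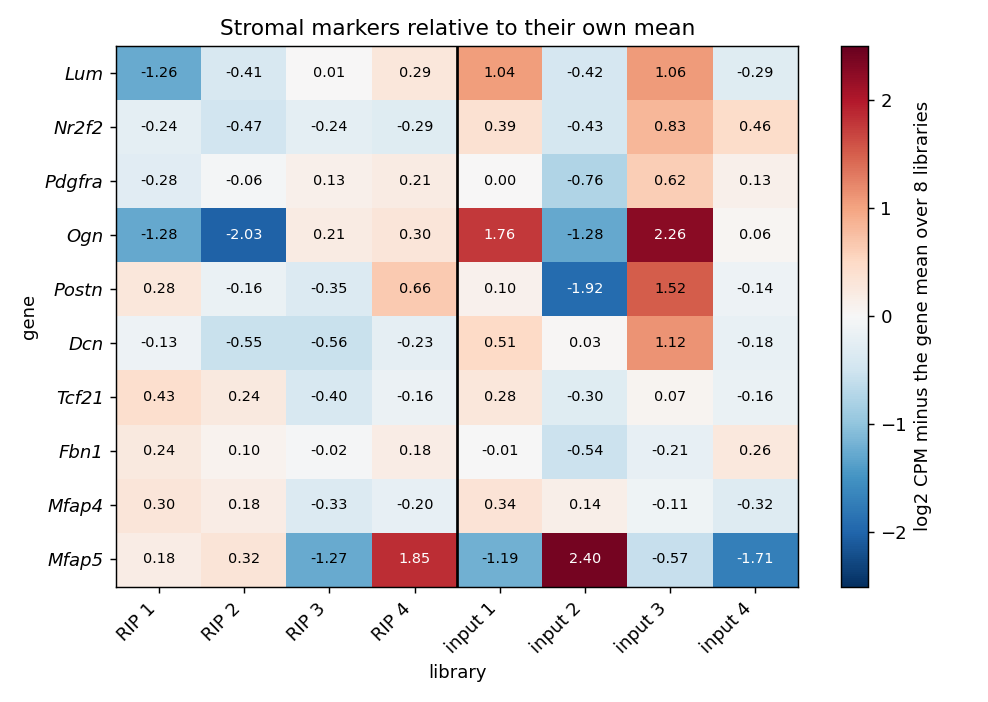
Level of each stromal marker (rows) in each library (columns) as log2 CPM minus the mean of that gene over the 8 libraries, with RIP libraries left of the black line and input libraries right of it. The top rows, Lum to Postn, share a high value in input 3 and a low value in input 2 (Ogn 2.26 and -1.28, Postn 1.52 and -1.92), and Mfap5 runs the other way in input 2 (2.40).

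Promoter sequences are shown, as a description, for the genes that shared this order of the inputs. The genes were picked by that order, which 13.8% of tested genes share. Whether core promoter letters go with it was not tested. RefSeq windows of GRCm38.p6 were at hand for Ogn, Nr2f2, Pdgfra and Postn, and also for Fbn1 and Tcf21, but not for Lum. The 250 bases before the start that each RefSeq window gives are printed 5′ to 3′ on the strand of the gene, with matches in capitals to TATAAA (the TATA box), CCAAT (the CCAAT box) and GGGCGG (the GC box), each searched on both strands. The table gives a pair of windows for Postn, and both are shown. The Pdgfra window lies within the gene's span, and the Fbn1 window reaches into the span of Fbn1. Each of them therefore belongs to a start downstream of the outermost one.
Ogn, chr13:49607765-49608014, plus strand: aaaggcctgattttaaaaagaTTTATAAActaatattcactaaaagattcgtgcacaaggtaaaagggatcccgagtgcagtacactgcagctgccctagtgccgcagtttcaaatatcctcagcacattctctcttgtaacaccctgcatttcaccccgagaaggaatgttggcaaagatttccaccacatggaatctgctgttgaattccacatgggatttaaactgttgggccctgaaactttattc
Nr2f2, chr7:70366747-70366996, minus strand: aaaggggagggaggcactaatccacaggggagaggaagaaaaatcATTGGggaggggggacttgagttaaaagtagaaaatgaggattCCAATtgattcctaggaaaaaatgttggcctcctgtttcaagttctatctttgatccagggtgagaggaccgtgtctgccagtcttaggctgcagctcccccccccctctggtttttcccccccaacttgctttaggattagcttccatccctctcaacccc
Pdgfra, chr5:75152001-75152250, plus strand: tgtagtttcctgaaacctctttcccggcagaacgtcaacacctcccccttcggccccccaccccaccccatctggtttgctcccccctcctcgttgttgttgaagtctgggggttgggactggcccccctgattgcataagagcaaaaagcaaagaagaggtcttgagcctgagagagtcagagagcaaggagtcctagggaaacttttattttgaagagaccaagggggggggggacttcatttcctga
Postn, first start, chr3:54359017-54359266, plus strand: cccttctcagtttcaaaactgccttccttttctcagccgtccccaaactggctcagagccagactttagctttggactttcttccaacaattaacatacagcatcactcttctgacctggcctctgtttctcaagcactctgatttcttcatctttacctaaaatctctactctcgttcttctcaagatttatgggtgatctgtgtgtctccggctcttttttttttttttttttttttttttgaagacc
Postn, second start, chr3:54360857-54361106, plus strand: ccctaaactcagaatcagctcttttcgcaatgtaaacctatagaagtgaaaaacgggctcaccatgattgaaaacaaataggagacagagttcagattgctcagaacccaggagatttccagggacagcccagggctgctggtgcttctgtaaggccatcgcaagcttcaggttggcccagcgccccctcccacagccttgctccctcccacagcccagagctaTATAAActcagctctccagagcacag

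No motif of these was common to the printed windows. TATAAA was present upstream of Ogn, where matches on both strands overlap near the upstream end of the window, far from the start. It was also present upstream of the second Postn start, at position -26 from the start. CCAAT was present upstream of Nr2f2 on both strands, and both matches lay nearer the upstream end of the window than the start. Pdgfra and the first Postn start held none of the motifs. Over 32851 RefSeq windows of the same length, 12.4% held TATAAA, 33.8% CCAAT and 32.7% GGGCGG. Fbn1, whose highest input was library 4, held GGGCGG and had 13 CpG dinucleotides in its window, where the printed ones had 1 to 4 and the median of all windows was 6. Tcf21, whose highest input was library 1, held none of the motifs and had 5 CpG dinucleotides. Matches are a description of these letters only.

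Among the genes whose profile over the 8 libraries was most like the mean standardized profile of the members were Jmy (Pearson's r = 0.97), Zfyve9 (0.97) and Zfp955b (0.95). These are among the highest of 14657 other tested genes over only 8 libraries, which share depth and scaling, and no p is given. Jmy had 152, 130.3, 128 and 154 CPM in RIP libraries 1 to 4 and 175, 121, 208 and 153 CPM in input libraries 1 to 4, again highest in input 3 and lowest in input 2. The members themselves had r from -0.33 for Mfap5 to 0.86 for Postn with this mean, to which each contributes. Above an r of 0.8 there were 181 other genes and 1 member.

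The summed level of the 10 members was 1182, 1083, 1022 and 1157 CPM in RIP libraries 1 to 4 and 1258, 839, 1369 and 1219 CPM in input libraries 1 to 4. The mean was 1111 ± 73 CPM in RIP and 1171 ± 230 CPM in input (SD, n = 4 each), a ratio of 0.948, and the RIP libraries lay within the range of the inputs. Without Fbn1, the member with the highest log2 fold change, the ratio was 0.773, at 504 ± 26 CPM in RIP and 653 ± 189 CPM in input. The RIP libraries again lay within the range of the inputs (475 to 526 CPM in RIP, 457 to 890 CPM in input). Collagen chain genes, the other main product of stromal cells, gave 6180 to 10778 CPM in RIP and 5184 to 8828 CPM in input, with 0 of 10 called, 8 above 0 and a median of 0.16. Col6a3 averaged 435 ± 70 CPM in RIP and 340 ± 64 CPM in input (SD, n = 4 each; log2 0.35 ± 0.23), and Col5a2 269 ± 86 CPM in RIP and 215 ± 55 CPM in input (0.33 ± 0.27).

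**Figure D4:**
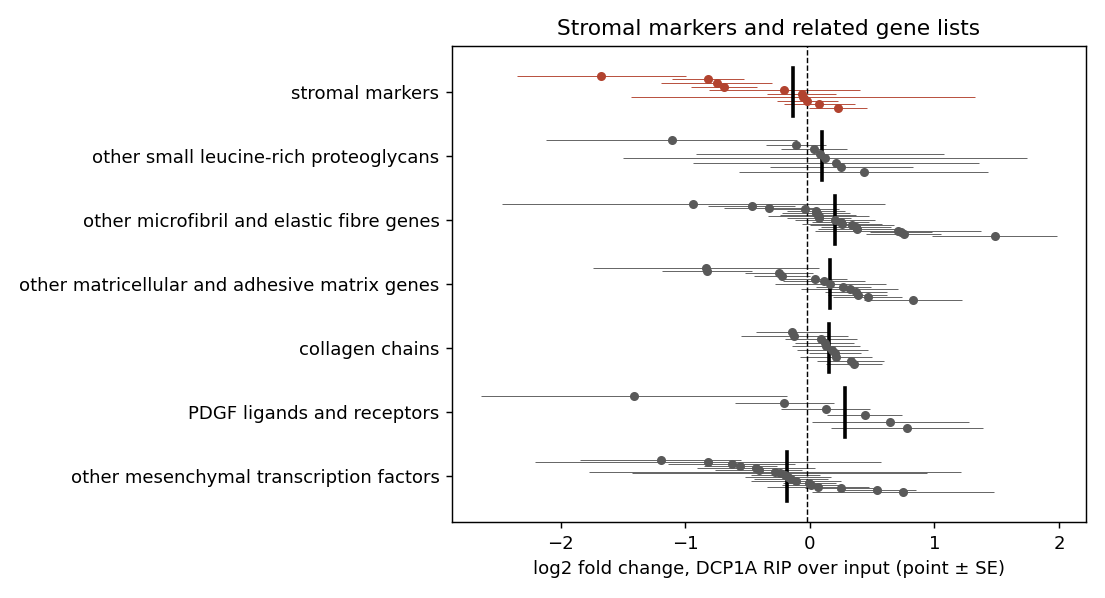
Log2 fold change of DCP1A RIP over input (horizontal axis, point ± SE) for the tested genes of the stromal marker set (red) and of 6 related lists (grey). Heavy black ticks are list medians and the dashed line is the median of all tested genes. The median was -0.13 for the stromal markers, 0.20 for other microfibril genes and 0.16 for collagen chains, and no gene shown passed the adjusted test.

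Markers of other cell types that the tissue could hold were summed in the same way, and their part in the values above was not tested. The range for 11 smooth muscle and pericyte markers was 174 to 226 CPM in RIP and 149 to 236 CPM in input, and for 9 endothelial markers 107 to 135 CPM in RIP and 81.3 to 136 CPM in input. For 7 theca and steroidogenic markers it was 38.6 to 77.1 CPM in RIP and 27.3 to 76.9 CPM in input, for 10 surface epithelium markers 124 to 255 CPM in RIP and 113 to 159 CPM in input, and for 9 markers of blood-derived cells 29.1 to 42.7 CPM in RIP and 18.1 to 32.2 CPM in input. The ranges overlapped in each case. By edgeR no gene of these lists, nor of the oocyte and granulosa lists, passed the adjusted test. At an unadjusted p under 0.05 were Kitl, the granulosa ligand of the oocyte receptor KIT (log2 -0.63 ± 0.27), the macrophage receptor gene Csf1r (0.84 ± 0.38) and the keratin gene Krt8 (0.67 ± 0.28). At that threshold 4.28% of all tested genes were lower and 3.15% higher by edgeR.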

How the data were processed

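The authors deposited a table of estimated counts (expected counts) per gene for 8 libraries. Per the labels' protocols, the Magna RIP kit was used for immunoprecipitation and a SMARTer stranded kit for total RNA libraries. The genome build was mm10, per the submitters' processing notes. Aligner, counting tool and annotation: not given in the sources used here. At most 1.85% of a library's values were not whole (tolerance 1e-09), and counts were rounded.

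RIP was compared with input over all libraries in R 4.3.3 with edgeR 4.0.16: TMM scaling, filterByExpr (minimum total 15, minimum count 10), a quasi-likelihood fit (robust) without a block, and Benjamini-Hochberg adjustment at 0.05 over 14667 genes. The SE was obtained as |log2 fold change| / sqrt(F). The log2 CPM used a prior count of 2. limma 3.58.1 (voom) and DESeq2 1.42.0 were alternatives. The test was tested on simulated data.

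Coordinates are those of RefSeq GRCm38.p6, where all 10 members matched by symbol. Members, lists and settings were chosen with earlier results of these data known. All members are named, with up to 2 genes of lowest p per other list and the 5 genes most alike, of which 2 are not reported here. The labels give no pairing, so the numbers were not taken as pairs in the main fit. Same-numbered libraries had correlations of their deviations from the group means of 0.16, 0.09, 0.18 and 0.12, all above 0. Whether the numbers are pairs was not tested, and a fit with the number as a block was among the alternatives. Ccn1 and Ccn2 were listed under their older names as well, and only Cyr61 and Ctgf were used. Adgre1, Hbb-bs and Muc16 were not analysed here.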

Additional observations from a re-analysis of the deposited data

Results flagged for a closer look

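In input, the highest Mfap5 library stood apart from the other 3: input 2 had 4.16 CPM, and inputs 1, 3 and 4 had 0.252, 0.443 and 0.146 CPM. The gap to the nearest library was 0.926 of the range of the group, above Dixon's 95% critical value for 4 samples. It was the only one of 22 groups checked (10 members and their sum, in RIP and in input), where chance gives about 1 in 20. Mfap5 had 3 to 49 counts in the inputs. Without input 2 its log2 fold change was 2.06 (edgeR adjusted p = 0.638).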

How the results depend on the processing

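No member passed in any of the 20 alternatives. Dcn, Lum, Nr2f2, Ogn and Fbn1 kept their direction in all of them. Of 199 values of single members, 173 kept their direction and 26 turned sign. Tcf21 was at -0.079 with limma voom and -0.23 within libraries 3 and 4. Pdgfra was at 0.039 with voom, 0.0014 with the replicate block and 0.17 within libraries 1 and 2. Mfap4 was at 0.012 with upper quartile scaling. Postn was at 0.25 with the replicate block and 0.66 within libraries 1 and 2. Mfap5 was at 0.12 with library size only, 0.81 with voom, 0.54 with the replicate block, 0.48 with numbers 1 and 2 against 3 and 4 as a block and 2.34 within libraries 3 and 4. Without 1 library each, values ran from -0.066 to 0.21 for Tcf21, -0.26 to 0.18 for Pdgfra, -0.13 to 0.10 for Mfap4, -0.93 to 2.06 for Mfap5 and -0.54 to 0.59 for Postn. Mfap5 had too few counts for the stricter filter. The members' median (-0.13) ran from -0.55 without RIP 4 to -0.080 without RIP 3 when 1 library was left out. The medians over all tested genes were then -0.023 and -0.020. With the replicate block the members' median was -0.012, beside 0.070 over all tested genes. With numbers 1 and 2 against 3 and 4 as a block it was -0.028, beside 0.029. The ratio of summed CPM (0.948) ran from 0.867 to 1.01 without 1 library, with 1.077 for the libraries numbered 1 and 2 alone and 0.841 for those numbered 3 and 4.

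Genes called over the whole table, 0 higher and 6 lower, became 13 and 43 by DESeq2, 13 and 42 with the replicate block, 12 and 43 with numbers 1 and 2 against 3 and 4 as a block and 3 and 24 within libraries 1 and 2. Without 1 library each they ran from 0 to 1 higher and from 4 to 16 lower, with 16 lower without RIP 1 and 15 without input 3. The cause was not tested. Of 8 libraries, 4 correlated best with their own number across groups. Mfap5 had 3 to 59 counts per library, which limits what its values can show.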
